A study of Homo sapiens with 36 samples.

Results

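The 8 genes HOXB2, HOXB3, HOXB4, HOXB5, HOXB6, HOXB7, HOXB8 and HOXB9 of the human HOXB cluster were taken by symbol from the 26485 gene symbols counted in each library. The members were chosen by symbol, and the cluster was selected on earlier results of these same libraries, with no record of which levels or contrasts were used. All tests below are therefore descriptions of these libraries and not independent evidence. The cells were MDA-MB-231, an established human triple-negative breast cancer line that the labels call a xenograft cell line. All lines carried a CRISPR interference (CRISPRi) construct and an overexpression construct. In control the CRISPRi target was eGFP and the overexpression construct was a control. In UAU the target was eGFP and the construct was tRNAIleUAU, the isoleucine tRNA with the anticodon UAU. In GAUi the target was Ile GAU, the isoleucine tRNA with the anticodon GAU, with the control construct. In isoswitch both the Ile GAU target and the tRNAIleUAU construct were present. Whether a line was 1 clone or a pool is not given in the sources used here.

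Each of the 4 lines gave total RNA and a pair of gradient fractions, with 3 libraries (A, B and C) of each, 36 in all. The low fraction pooled the single-ribosome peak with the lightest polysome peak, and the high fraction held the heavier polysomes. Cells had been kept in 100 ug/mL cycloheximide, which halts elongating ribosomes, for 5 minutes before freezing. Libraries were made from 500 ng of RNA with the QuantSeq kit, which reads the 3' end of polyadenylated RNA, so that levels were not divided by gene length. Total counts per library were between 5192464 and 8974001. Levels are in CPM, the count of a gene relative to its TMM-scaled library total, given as mean ± SD with n = 3 libraries, and a level is a share of its own library rather than an amount of RNA in the fraction. The mesenchymal genes that mark this line were present, with mean levels in total RNA from 12.2 (CD274) to 3213 CPM (VIM). Of the 8 luminal genes, ESR1, CDH1 and PGR had 15, 12 and 69 counts over all libraries. The other luminal genes were present in total RNA: KRT18 at 291 CPM, KRT8 at 37.8, GATA3 at 16.8, EPCAM at 14.3 and ERBB2 at 11.4. In bulk RNA, fewer cells that express a gene and less RNA per cell cannot be told apart.

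HOX genes encode homeodomain transcription factors that set position along the body axis, and they lie in 4 clusters in which gene order follows the order of expression along that axis. HOX proteins bind DNA with PBX and MEIS family cofactors, and Polycomb and Trithorax proteins keep the clusters silent or active. HOXB7 and HOXB9, at the posterior side of the cluster, are known in breast cancer for overexpression and for their part in growth factor production and invasion.

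The members lie on chromosome 17 from 48542655 to 48626358 (GRCh38.p14, the RefSeq annotation), a span of 83.7 kb. HOXB9 (48621156 to 48626358), HOXB8 (48612346 to 48615292) and HOXB7 (48607232 to 48611017) overlap no other annotated gene. HOXB3 (48548870 to 48590241) contains HOXB4 (48575507 to 48578350) and overlaps the antisense RNA HOXB-AS1. HOXB2 (48542655 to 48545109) also overlaps HOXB-AS1, and HOXB5 (48591257 to 48593779) and HOXB6 (48595751 to 48604986) overlap the antisense RNA HOXB-AS3. The strand setting of the counting is not given in the sources used here, so counts of the overlapped members are uncertain, while those of HOXB7, HOXB8 and HOXB9 do not have this limit.

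HOXB9 was the leading member and the other members were low. It had 3793 of the 4970 counts of the 8 members, 76.3% (exact binomial 95% interval 75.1 to 77.5%, counting error only), and between groups the share ran from 62.2% in low control to 84.6% in high GAUi. HOXB3 had 551 counts, HOXB5 220, HOXB4 205 and HOXB7 128. HOXB8 had 43, HOXB6 17 and HOXB2 13. HOXB9, HOXB3, HOXB4 and HOXB5 had a count in all 36 libraries, HOXB7 in 35, HOXB8 in 26, HOXB6 in 13 and HOXB2 in 9. HOXB1 and HOXB13, the outermost coding genes of the cluster, had no count in any library, which allows a level of up to 0.0122 CPM (3 counts over all 36 libraries, counting error only).

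Set beside the other clusters, the HOXB genes had 39.4% of the 12606 counts over 39 HOX genes, HOXC 36.6%, HOXD 22.6% and HOXA 1.40%. HOXB9 alone had 30.1% and was the most counted HOX gene, ahead of HOXC6 with 2099 counts, HOXC8 with 1747 and HOXD4 with 1386. HOXB3 was the sixth, after HOXD3.

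**Figure D1:**
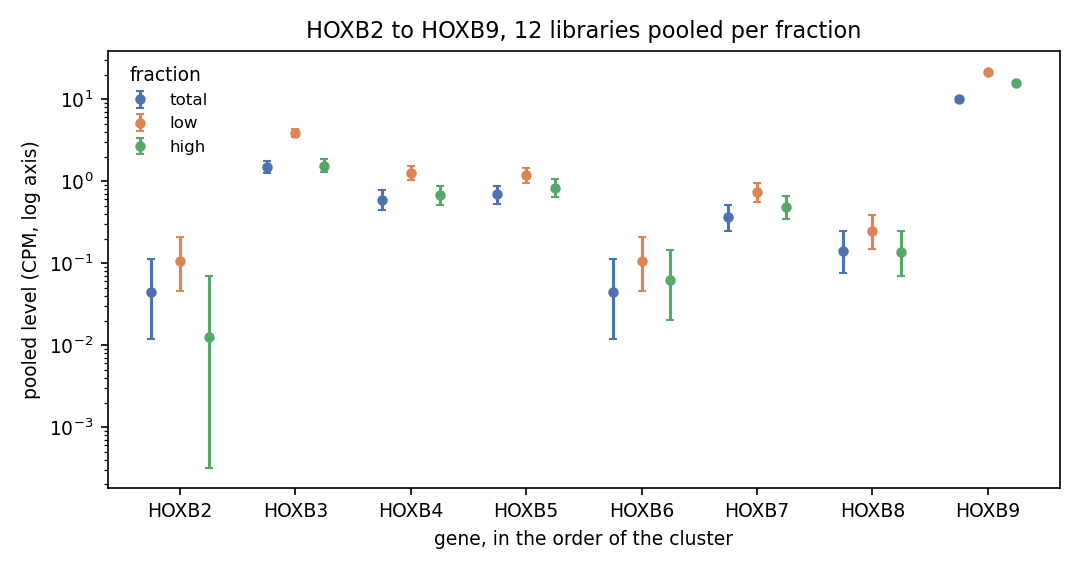
Pooled level in CPM (log axis) of HOXB2 to HOXB9 in total RNA, low fraction and high fraction, each point 12 libraries pooled and each bar an exact Poisson 95% interval that covers counting error only. HOXB9 is the highest in all 3 fractions, at 9.98, 21.3 and 15.9 CPM.

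In total RNA, HOXB9 was similar in control, UAU and GAUi and highest in isoswitch, without passing the test. Control libraries A, B and C had 9.25, 8.85 and 8.0 CPM (8.70 ± 0.639). UAU had 10.5, 8.78 and 9.06 (9.45 ± 0.919). GAUi had 8.84, 7.95 and 10.5 (9.09 ± 1.28). Both groups overlapped control. Isoswitch had 10.1, 14.9 and 13.05 (12.7 ± 2.41), and all its libraries lay above all control libraries.

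The log2 fold changes of HOXB9 in total RNA against control were 0.15 in UAU (SE 0.17, adjusted p = 0.785), 0.05 in GAUi (SE 0.17, adjusted p = 0.883) and 0.56 in isoswitch (SE 0.17, adjusted p = 0.0652). Of all genes tested, 0.914%, 10.1% and 4.05% were called (adjusted p under 0.05) in these comparisons. Neither of the 2 members tested was called by edgeR or DESeq2. DESeq2 gave HOXB3 no adjusted p in UAU and GAUi, so it could not call HOXB3 there. The unadjusted p with edgeR was 0.00299 for HOXB9 in isoswitch and 0.0137 for HOXB3 in GAUi. The isoswitch value was called at 0.57 (adjusted p = 0.00915) when the fit held only the groups compared, and at 0.70 (adjusted p = 0.0357) without isoswitch A. Against UAU the isoswitch difference was 0.42 (SE 0.16, adjusted p = 0.206), and against GAUi it was 0.51 (SE 0.16, adjusted p = 0.183), where 3.42% and 0.113% of all genes were called.

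In the low fraction HOXB9 was higher than control in GAUi and isoswitch. Control had 9.42, 16.01 and 11.5 CPM (12.3 ± 3.37), and library B stood above A and C. Over all genes library B also differed more from A and C than these did from each other. GAUi had 24.6, 26.6 and 22.4 (24.5 ± 2.09). Isoswitch had 29.8, 24.8 and 25.9 (26.8 ± 2.67). Neither group overlapped control. UAU lay between, at 15.4, 22.3 and 22.2 (19.97 ± 3.97), and its library A was below control B.

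HOXB9 rose in the low fraction by a log2 fold change of 0.97 in GAUi (SE 0.18, adjusted p = 0.00399, 1.96-fold) and of 1.10 in isoswitch (SE 0.18, adjusted p = 0.00172, 2.15-fold). It was 1 of 3 members tested there and the one called, in comparisons that called 3.4% and 2.58% of all genes. Both calls held with each library left out. The UAU value of 0.68 (SE 0.18, adjusted p = 0.093) was not called, where 0.691% of all genes were. It was called with DESeq2 (adjusted p = 0.0411), without a low-count filter (0.00526), without control B (0.0122) and without UAU A (0.0392). The other 7 of 11 alternatives did not call it, with an adjusted p of up to 0.354. Isoswitch differed from UAU by 0.43 (SE 0.16, adjusted p = 0.172) with no overlap between the libraries, where 4.25% of all genes were called, and from GAUi by 0.13 (SE 0.16, adjusted p = 0.917).

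**Figure D2:**
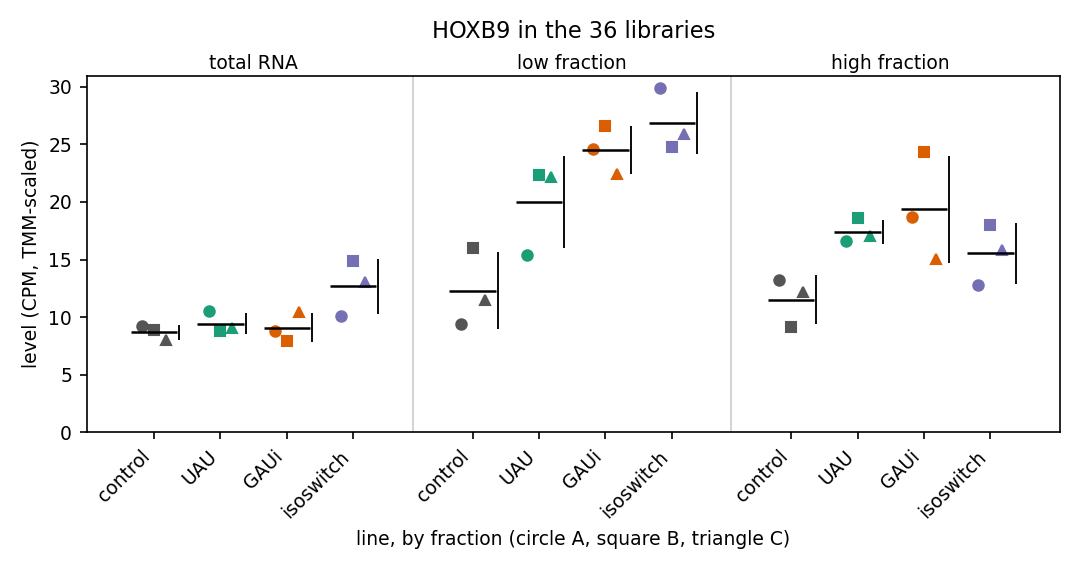
HOXB9 in each of the 36 libraries in CPM (linear axis from 0), by line within total RNA, low fraction and high fraction, with symbols for replicates, a horizontal line at each mean and a vertical bar of ± 1 SD. In the low fraction all GAUi and isoswitch libraries lie above all control libraries, and in the high fraction all UAU and GAUi libraries do.

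In the high fraction HOXB9 rose in UAU and GAUi, and isoswitch lay between them and control. Control had 13.3, 9.15 and 12.2 CPM (11.5 ± 2.13). UAU had 16.6, 18.6 and 17.02 (17.4 ± 1.04). GAUi had 18.7, 24.3 and 15.1 (19.4 ± 4.65). Both stood apart from control, GAUi with a wide spread. Isoswitch had 12.8, 18.01 and 15.8 (15.5 ± 2.64), and its library A was below control A.

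The log2 fold change of HOXB9 in the high fraction was 0.60 in UAU (SE 0.17, adjusted p = 0.0107, 1.52-fold) and 0.75 in GAUi (SE 0.17, adjusted p = 0.00542, 1.69-fold). Of the 2 members tested it was the one called, and 28.7% and 10.1% of all genes were called in these comparisons. Single libraries carried both calls: the UAU value was 0.46 (adjusted p = 0.08) without control B, and the GAUi value 0.55 (adjusted p = 0.0639) without GAUi B. The isoswitch value was 0.41 (SE 0.18, adjusted p = 0.139), where 11% of all genes were called. Isoswitch was lower than UAU by a log2 difference of -0.19 (SE 0.17, adjusted p = 0.394) and than GAUi by -0.34 (SE 0.17, adjusted p = 0.173), neither of them called, where 41.6% and 15.8% of all genes were.

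HOXB9 was called higher in 4 of the 9 comparisons of a modified line with control, and all 9 fitted values were above 0. The share of all genes called higher was 0.348% in UAU, 4.38% in GAUi and 1.29% in isoswitch in total RNA, 0.329%, 1.27% and 0.964% in the low fraction, and 13.1%, 4.66% and 3.67% in the high fraction. The 3 comparisons of a fraction share its control libraries. Isoswitch against UAU, which shares no library with GAUi against control, gave 0.42, 0.43 and -0.19 in total RNA, low and high fraction, beside 0.05, 0.97 and 0.75 for GAUi against control. Isoswitch against GAUi gave 0.51, 0.13 and -0.34, beside 0.15, 0.68 and 0.60 for UAU against control. The values in eGFP cells and in the doubly modified line thus had opposite signs in the high fraction. There the negative values, -0.19 and -0.34, were not called by edgeR (adjusted p = 0.394 and 0.173). Within a fraction, the gap of both pairs is the same quantity, the interaction given below, so the pairs are not separate results.

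**Figure D3:**
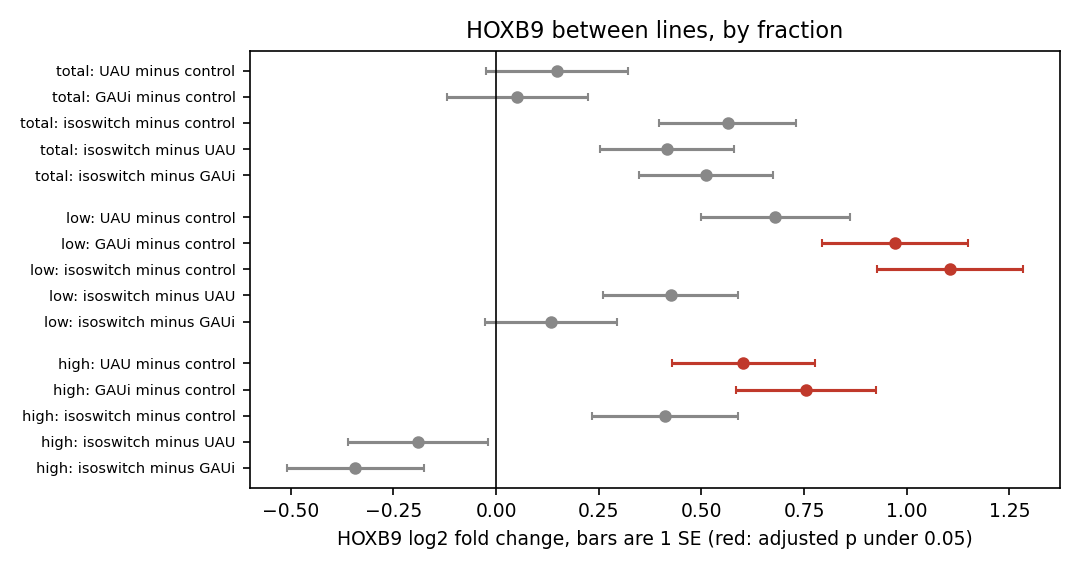
Log2 fold change of HOXB9 (horizontal axis) for the 5 comparisons of lines in each fraction, with bars of ± 1 SE and red where the adjusted p was under 0.05. The 4 red points are GAUi and isoswitch against control in the low fraction and UAU and GAUi against control in the high fraction.

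The interaction compares the UAU effect in cells with the Ile GAU target with that in cells with the eGFP target. For HOXB9 it was -0.94 on the log2 scale in the high fraction (SE 0.24, adjusted p = 0.00308), so the doubly modified line was lower than the sum of the single changes. This was a called difference in a comparison that called 35.7% of all genes, and it held under each alternative fit and with each library left out (-1.09 to -0.74). In the low fraction the interaction was -0.55 (SE 0.24, adjusted p = 0.379, 0.233% of all genes called) and in total RNA 0.36 (SE 0.24, adjusted p = 0.644, 0.0243% of all genes called).

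Between the polysome fractions, HOXB9 was lower in the high than in the low fraction in isoswitch, by a log2 difference of -0.78 (SE 0.18, adjusted p = 0.00026), with no overlap between the libraries. The differences were -0.11 in control (SE 0.20, adjusted p = 0.642), -0.18 in UAU (SE 0.18, adjusted p = 0.381) and -0.32 in GAUi (SE 0.17, adjusted p = 0.0976), and libraries overlapped in each. Between 66.1% (UAU) and 67.7% (isoswitch) of all genes were called in these comparisons, with 66.3% in control and 66.7% in GAUi. The GAUi value was called with only the groups compared in the fit (-0.35, adjusted p = 0.0219) and without high GAUi B (-0.51, adjusted p = 0.018). The isoswitch difference itself was not called different from that of control (-0.67, SE 0.27, adjusted p = 0.297), where 0.00784% of all genes were called. It was called without low control B (-0.91, adjusted p = 0.0468). The changes from control were -0.07 in UAU (SE 0.27, adjusted p = 0.925) and -0.21 in GAUi (SE 0.27, adjusted p = 0.829), with 6.53% and 0.196% of all genes called.

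Against total RNA, a comparison added after the values were seen, HOXB9 was higher in the low fraction in all 4 lines. The log2 differences were 0.55 in control (SE 0.20, adjusted p = 0.0162), 1.11 in UAU (SE 0.18, adjusted p = 1.22e-06), 1.46 in GAUi (SE 0.18, adjusted p = 2.1e-09) and 1.09 in isoswitch (SE 0.17, adjusted p = 4.9e-07), with no overlap in any line. Of all genes, 61.2%, 64.4%, 64.4% and 63% were called. The control call was lost without total control C (0.49, adjusted p = 0.0603) or low control B (0.31, adjusted p = 0.22). In the high fraction HOXB9 was higher than in total RNA in UAU (0.88, SE 0.19, adjusted p = 7.34e-05) and GAUi (1.10, SE 0.18, adjusted p = 1.9e-06), where 57.3% and 56.3% of all genes were called. The control and isoswitch values were 0.42 (SE 0.20, adjusted p = 0.0724) and 0.27 (SE 0.18, adjusted p = 0.21), neither called, with 50.8% and 52.5% of all genes called.

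The low-to-total difference of HOXB9 was larger in GAUi than in control by 0.90 (SE 0.27), which missed the threshold (adjusted p = 0.059, 2.41% of all genes called). It passed with DESeq2 (adjusted p = 0.0237), without a low-count filter (0.00978), without total GAUi C (0.0369) and without low control B (0.0107). The other 13 of 17 alternatives did not call it, with an adjusted p of up to 0.192. The changes in UAU (0.56, SE 0.27, adjusted p = 0.63) and isoswitch (0.54, SE 0.26, adjusted p = 0.576) were not called, with 0.0077% of all genes called in UAU. For the high-to-total difference the changes were 0.47 in UAU (SE 0.27, adjusted p = 0.35), 0.68 in GAUi (SE 0.27, adjusted p = 0.252) and -0.15 in isoswitch (SE 0.27, adjusted p = 0.999), none called, with 5.54% and 0.47% of all genes called in UAU and GAUi.

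Ordered by mean level, HOXB9 ran from total RNA of control, GAUi and UAU, through high control, low control, total isoswitch, high isoswitch, high UAU, high GAUi and low UAU, to low GAUi and low isoswitch. Neighbours in this order overlapped, except low UAU, whose highest library (22.3 CPM) was just below the lowest of low GAUi (22.4 CPM). The share of HOXB9 in the counts of the 8 members went from 67.4% in control to 80.7% in isoswitch in total RNA (exact binomial intervals 61.6 to 72.8% and 76.2 to 84.6%). In the low fraction it went from 62.2% (56.8 to 67.4%) to 81.2% (78.0 to 84.2%), and in the high fraction from 72.6% (67.5 to 77.2%) to 82.5% (78.1 to 86.3%). These intervals cover counting error only.

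HOXB3, an anterior gene of the cluster, differed between the polysome fractions, while no comparison of a modified line with control called it. Low-fraction libraries of control had 4.27, 3.42 and 4.12 CPM (3.93 ± 0.453) and UAU 5.45, 4.49 and 4.11 (4.68 ± 0.689). GAUi had 2.92, 3.67 and 4.21 (3.60 ± 0.651) and isoswitch 3.23, 3.04 and 3.22 (3.16 ± 0.109). The means of the high fraction were 1.62 ± 0.449 in control, 2.00 ± 0.214 in UAU, 1.49 ± 0.495 in GAUi and 1.06 ± 0.306 in isoswitch. No high library reached a low library of the same line.

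HOXB3 was lower in the high than in the low fraction in all 4 lines. The log2 differences were -1.29 in control (SE 0.29, adjusted p = 0.000263), -1.20 in UAU (SE 0.27, adjusted p = 0.000277), -1.25 in GAUi (SE 0.30, adjusted p = 0.000456) and -1.55 in isoswitch (SE 0.33, adjusted p = 0.000133). These are calls in comparisons that called about the same large share of all genes in each line, as given for HOXB9. Each was called with each library left out, and none differed from control by a called amount (adjusted p from 0.861 to 0.992).

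**Figure D4:**
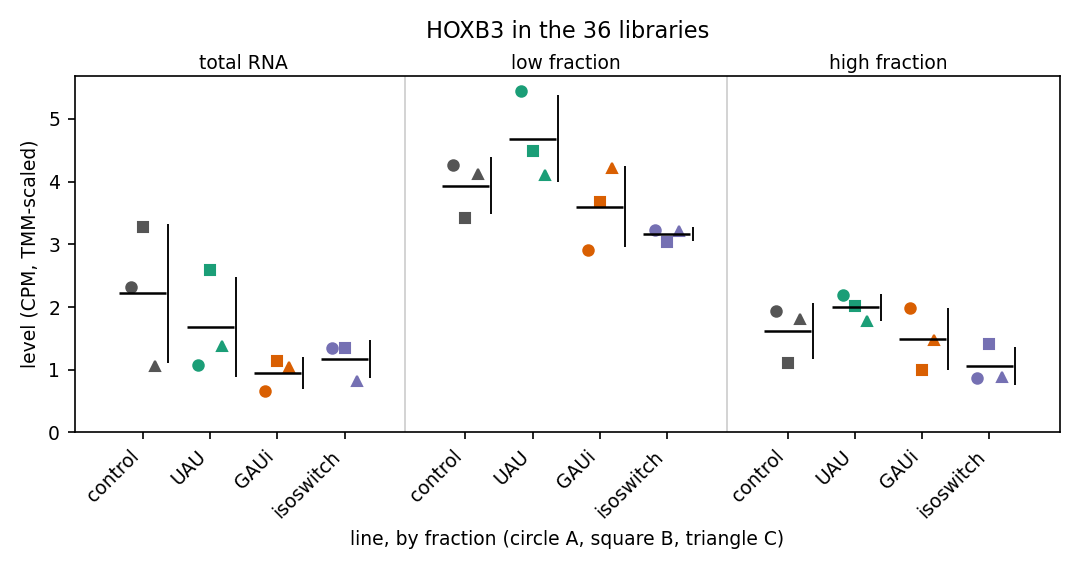
HOXB3 in each of the 36 libraries in CPM (linear axis from 0), by line within total RNA, low fraction and high fraction, with symbols for replicates, a horizontal line at each mean and a vertical bar of ± 1 SD. The low fraction lies highest, with group means from 3.16 to 4.68 CPM.

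In total RNA HOXB3 was 2.31, 3.28 and 1.07 CPM in control (2.22 ± 1.11), a wide spread. UAU had 1.08, 2.58 and 1.37 (1.68 ± 0.798), GAUi 0.655, 1.14 and 1.05 (0.946 ± 0.256) and isoswitch 1.35, 1.35 and 0.815 (1.17 ± 0.308), and each overlapped control. The GAUi value against control was -1.23 (SE 0.45, adjusted p = 0.09). It was called without a low-count filter (adjusted p = 0.0499) and without control C (-1.58, adjusted p = 0.0408). In the high fraction isoswitch lay below UAU without overlap (-0.93, SE 0.40, adjusted p = 0.0646, 41.6% of all genes called; adjusted p = 0.0495 without isoswitch B), and in the low fraction isoswitch lay below control (-0.34, SE 0.26, adjusted p = 0.601) and below UAU (-0.56, SE 0.25, adjusted p = 0.244) without overlap.

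HOXB3 was also higher in the low fraction than in total RNA, by 0.88 in control (SE 0.31, adjusted p = 0.0128), 1.48 in UAU (SE 0.31, adjusted p = 5.46e-05), 1.94 in GAUi (SE 0.35, adjusted p = 7.08e-06) and 1.42 in isoswitch (SE 0.35, adjusted p = 0.00054). The control value was 0.54 (adjusted p = 0.135) without total control C. No difference between high fraction and total RNA was called for HOXB3 (adjusted p from 0.186 to 0.774). HOXB-AS1, the antisense RNA that overlaps HOXB3 and HOXB2, had pooled levels of 0.615 CPM in total RNA, 2.08 in the low fraction and 0.603 in the high fraction. How HOXB3 and HOXB-AS1 share reads was not tested.

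HOXB4, whose gene lies within HOXB3, and HOXB5 were near 1 CPM. Neither passed the low-count filter in total RNA or in the high fraction alone, and HOXB5 did not pass it in the low fraction alone. They entered the fits across fractions mainly through the low fraction, where they were higher. Their differences between fractions are therefore given here as levels, and fits of them carry no weight as a test. HOXB4 had pooled levels of 0.594 CPM in total RNA (exact Poisson 95% interval 0.446 to 0.774, counting error only), 1.27 in the low fraction (1.03 to 1.55) and 0.679 in the high fraction (0.510 to 0.885). HOXB5 had 0.692 (0.532 to 0.886), 1.195 (0.962 to 1.47) and 0.829 (0.641 to 1.06) CPM. HOXB4 in GAUi had 0.648, 1.84 and 1.85 CPM in the low fraction and 0.613, 0.286 and 0.492 in the high fraction. HOXB5 in UAU had 1.92, 1.06 and 0.657 CPM in the low fraction and 0.549, 0.202 and 0.545 in the high fraction. In these cases the libraries of the fractions did not overlap, while in the other lines they overlapped for both genes. The filter favoured genes that are high in the low fraction, so this separation carries no weight as a test. Between these fractions 66.7% of all genes were called in GAUi and 66.1% in UAU.

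HOXB4 passed the filter in the fit of the low fraction. Control had 2, 6 and 7 counts there, UAU 5, 10 and 14, and GAUi 4, 15 and 11. It passed mainly through UAU and GAUi, where it was higher, so its values against control carry no weight as a test. The log2 fold changes were 0.69 in UAU, 0.70 in GAUi and 0.43 in isoswitch, none called by edgeR (adjusted p from 0.533 to 0.786). HOXB7, which had from 0 to 9 counts in a library, had pooled levels of 0.363 CPM in total RNA (exact Poisson 95% interval 0.250 to 0.509), 0.735 in the low fraction (0.555 to 0.955) and 0.490 in the high fraction (0.349 to 0.670). HOXB8 had at most 4 counts in a library, HOXB6 at most 3 and HOXB2 at most 4. HOXB8 was at 0 in the 3 total RNA libraries of control and had 2 to 3 counts in those of isoswitch. HOXB6, HOXB7, HOXB8 and HOXB2 did not pass the filter of any fit. Without the filter, edgeR called none of these 4 genes in the 9 comparisons with control, where 2 of 36 tests had an unadjusted p under 0.05 (lowest adjusted p = 0.23). In the other comparisons that fit called HOXB8 once, higher in the low fraction than in total RNA of control (adjusted p = 0.0322), where the low libraries had 4, 1 and 1 counts and total RNA none.

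None of the HOXA, HOXC and HOXD genes was called in a comparison of a modified line with control, by edgeR or DESeq2, and 4 of 51 such tests had an unadjusted p under 0.05. A gene without an adjusted p from DESeq2 was counted as not called. The share of all genes that edgeR called in these comparisons ran from 0.691% (low UAU) to 28.7% (high UAU). Of the HOXC genes 3 were tested in each fraction, of the HOXD genes 3 in total RNA and the low fraction and 2 in the high fraction, and of the HOXA genes none. Among the other HOXB transcripts only HOXB-AS1 was tested, in the low fraction, and it was not called there. Of the HOX cofactors, none was called in total RNA or the low fraction by edgeR or DESeq2, with 0 to 2 of the 6 or 7 tested at an unadjusted p under 0.05 in each comparison. In the high fraction, where 28.7% of all genes were called in UAU, UAU had 1 of 6 tested higher and 1 lower, PBX3 by 0.34 (SE 0.10, adjusted p = 0.0125) and GMNN, an inhibitor of DNA replication licensing that binds HOX proteins, by -0.43 (SE 0.08, adjusted p = 0.000351). In isoswitch, where 11% of all genes were called, PBX2 was lower by -0.33 (SE 0.09, adjusted p = 0.021). Its low-fraction values of 0.48 in UAU, 0.41 in GAUi and 0.38 in isoswitch were not called (adjusted p = 0.105, 0.0986 and 0.156).

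Of the 32 Polycomb, Trithorax and other chromatin regulators of HOX genes, 28 were tested in each fraction. In total RNA edgeR called 1 higher and 2 lower in GAUi, 1 higher in isoswitch and none in UAU. Of all genes, 10.1%, 4.05% and 0.914% were called in these comparisons. DESeq2 called 4, 2 and 1 of the list there. Low-fraction counts were 2 higher and 1 lower in GAUi, 1 higher in isoswitch and none in UAU. The shares of all genes called there were 3.4%, 2.58% and 0.691%. High-fraction counts were 4 higher and 7 lower in UAU, 2 higher and 1 lower in GAUi, and 2 higher and 3 lower in isoswitch, in comparisons that called 28.7%, 10.1% and 11% of all genes. The list's median log2 fold change lay between -0.14 (UAU, high fraction) and 0.07 (isoswitch, high fraction), where the medians of all genes tested lay between -0.0046 and 0.0082.

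BMI1, a core protein of Polycomb repressive complex 1, rose in GAUi and isoswitch in every fraction. In total RNA it went from 129.7 CPM in control to 232 ± 4.19 in GAUi (log2 fold change 0.83, SE 0.07, adjusted p = 1.43e-06) and 221 ± 8.19 in isoswitch (0.78, SE 0.07, adjusted p = 3.36e-06). The low-fraction changes were 0.79 (adjusted p = 7.52e-05) and 0.71 (adjusted p = 0.000224), and in the high fraction 0.78 (adjusted p = 3.38e-07) and 0.64 (adjusted p = 5.93e-06). In UAU its change was 0.22 in the high fraction (SE 0.08, adjusted p = 0.0416), which was called, and 0.27 in total RNA (adjusted p = 0.0987) and 0.18 in the low fraction (adjusted p = 0.394), which were not. EZH2, the methyltransferase of Polycomb repressive complex 2, was lower in GAUi in total RNA (-0.35, SE 0.10, adjusted p = 0.0351), the low fraction (-0.36, SE 0.09, adjusted p = 0.0232) and the high fraction (-0.43, SE 0.08, adjusted p = 0.000911). In isoswitch EZH2 was lower in the high fraction (-0.28, SE 0.08, adjusted p = 0.019), and its values of -0.37 in total RNA (adjusted p = 0.0527) and -0.32 in the low fraction (adjusted p = 0.0565) were not called. In the high fraction of UAU, EZH2 fell by 0.35 (adjusted p = 0.00181), CTCF, a chromatin boundary protein, by 0.67 (adjusted p = 9.17e-06) and RBBP4, a histone-binding subunit, by 0.62 (adjusted p = 0.000137) on the log2 scale.

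Of the genes described as targets of HOXB7 or HOXB9, 8 were tested in each fraction, and none was called higher by edgeR. The share of all genes called higher ran from 0.329% (low UAU) to 13.1% (high UAU), so none of 8 is near that share. In either direction, for UAU, GAUi and isoswitch, 0.914%, 10.1% and 4.05% of all genes were called in total RNA. These shares were 0.691%, 3.4% and 2.58% in the low fraction and 28.7%, 10.1% and 11% in the high fraction. TGFB2, a growth factor of the TGF-beta family, fell in UAU in total RNA, where control had 84.2 CPM and UAU 50.4 (-0.71 on the log2 scale, SE 0.10, adjusted p = 0.000794), in the low fraction (-0.60, SE 0.11, adjusted p = 0.0142) and in the high fraction (-0.77, SE 0.11, adjusted p = 1.38e-05). EREG, a ligand of the EGF receptor family, fell in GAUi and isoswitch in total RNA, from 39.7 to 28.3 CPM in both (-0.49, adjusted p = 0.00532, and -0.47, adjusted p = 0.013). It also fell in the low fraction of isoswitch (-0.61, adjusted p = 0.0303) and in the high fraction of GAUi (-0.39, adjusted p = 0.0432) and isoswitch (-0.41, adjusted p = 0.0305). ANGPTL2, a secreted angiopoietin-like protein, was lower in GAUi in total RNA (-1.15, SE 0.27, adjusted p = 0.0114) and the high fraction (-0.97, SE 0.30, adjusted p = 0.0362). DESeq2 called neither EREG nor ANGPTL2 in the high fraction of GAUi. VEGFA, the main angiogenic growth factor, was lower in total RNA of GAUi (-0.37, SE 0.09, adjusted p = 0.0179).

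Of the genes flanking the cluster, 7 were tested in total RNA and the high fraction and 8 in the low fraction. In the high fraction of UAU, where 28.7% of all genes were called and 13.1% called higher, 3 were higher and 2 lower, among them SNF8 (0.41, SE 0.09, adjusted p = 0.00132), CBX1 (0.32, SE 0.08, adjusted p = 0.00238), CALCOCO2 (-0.56, SE 0.11, adjusted p = 0.00065) and UBE2Z (-0.29, SE 0.09, adjusted p = 0.0148). SNF8 was lower in total RNA of GAUi (-0.32, SE 0.10, adjusted p = 0.0445), where 10.1% of all genes were called. In the other comparisons with control edgeR called no flanking gene. DESeq2 called 1 in the high fraction of GAUi, where 3 of 7 tested had an unadjusted p under 0.05 with edgeR.

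The genes whose levels went most like the mean profile of HOXB3, HOXB4, HOXB5 and HOXB9 over the 36 libraries were CCNYL1 (Pearson r 0.932), RABL6 and APH1A (both 0.929), SETD3 (0.928) and RNF167 (0.927), of 12976 genes compared. After each fraction was centred on its own mean, they were RAB12 (0.683), SETD3 (0.637), GNB5 (0.63), FAAP100 and RPS27L (both 0.627). The libraries share fraction, line and depth, so these values describe the libraries and carry no test.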

How the data were processed

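The authors deposited raw counts per gene symbol for 36 libraries, with no normalization. Per the submitters' processing notes, STAR, featureCounts, DESeq2 and the build hg38 were used, with versions and annotation not given in the sources used here. Positions come from RefSeq (GRCh38.p14), in which 23758 of the 26485 symbols and all 8 members were found. Counts were tested with edgeR 4.0.16 (quasi-likelihood, R 4.3.3) after filterByExpr (minimum count 10, total 15) and TMM scaling, with Benjamini-Hochberg adjustment over all genes tested and a call at an adjusted p under 0.05. Lines were fitted together within a fraction, the low and high fractions shared another, and comparisons with total RNA used all 36 libraries. The SE was taken as the size of the fitted log2 change over the root of its F statistic. In all, 39 comparisons were fitted. DESeq2 1.42.0, size factors of DESeq2 in edgeR, no filter, fits of only the groups compared, a replicate block and left-out libraries were alternatives. The test was checked on simulated counts.

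The members and lists were chosen with earlier results of these data known. All members were to be described, and from each list at most 4 genes called in a comparison with control, by smallest p. For likeness, the 5 highest Pearson correlations of log2 CPM (prior count 2) were taken. The labels do not say whether libraries came from separate cultures, so p-values measure the spread between these libraries. No 2 replicates agreed within sampling noise (chi-square per degree of freedom from 1.76 to 22.3). In low control this value was 14.7 for A with B and 12.8 for B with C, against 2.76 for A with C. In total GAUi it was 22.3 for A with B, 12.0 for A with C and 8.01 for B with C. Reads carry no molecular identifiers used here. Codon content and sequences of the members were not analysed here.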

Additional observations from a re-analysis of the deposited data

Results flagged for a closer look

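The effect of the UAU construct on HOXB9 in the high fraction differed between cells with the Ile GAU target and cells with the eGFP target, by the interaction term of the fit (-0.94 on the log2 scale, SE 0.24, adjusted p = 0.00308 with the edgeR quasi-likelihood test). HOXB9 was at 11.5 ± 2.13 CPM in control, 17.4 ± 1.04 in UAU, 19.4 ± 4.65 in GAUi and 15.5 ± 2.64 in isoswitch. All 3 UAU libraries lay above all 3 control libraries, while isoswitch and GAUi libraries overlapped. The same term called 35.7% of all genes in this fraction.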

How the results depend on the processing

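The text rests on 39 counts of members called and 39 HOXB9 values. Of these 78 results, 54 were scored as unchanged in every alternative run. A HOXB9 value was unchanged if it kept its direction and side of the threshold. A count of members could be scored as unchanged although a member lost its call. This was so for low minus total in UAU (HOXB4) and isoswitch (HOXB5), so 54 overstates how many results were free of such a loss. With only the groups compared in the fit, HOXB9 was called at 0.57 (isoswitch against control, total RNA), -0.35 (GAUi, high minus low) and 0.40 (control, high minus total), with 1 member called in total isoswitch and in control, high minus total, and 1 in place of 2 in UAU, high minus low. Without a low-count filter HOXB9 was called at 0.69 (low UAU) and 0.95 (change of the GAUi low-to-total difference), with 1 member called in each, 1 in total GAUi and 1 in UAU, high minus low. DESeq2 gave 0.68 and 0.91 for the same HOXB9 values, with 1 member called in each and 1 in UAU, high minus low. The cause of these changes was not tested.

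Libraries left out one at a time gave these ranges for HOXB9: -0.044 to 0.13 in total GAUi, 0.43 to 0.70 in total isoswitch, 0.53 to 0.91 in low UAU, 0.46 to 0.74 in high UAU and 0.55 to 0.90 in high GAUi, against control. High minus low gave -0.27 to 0.13 in control and -0.51 to -0.17 in GAUi, and its change from control -0.31 to 0.10 in UAU and -0.91 to -0.52 in isoswitch. Against total RNA the ranges were 0.31 to 0.71 (low control), 0.29 to 0.56 (high control) and 0.75 to 1.14 (change in low GAUi). For HOXB3 they were -0.81 to 0.037 in total UAU and -0.40 to 0.10 in high GAUi, and -0.070 to 0.32 in UAU and -0.24 to 0.30 in GAUi for the change of high minus low. HOXB4 in control gave -0.63 to 0.031 and HOXB5 in isoswitch -0.78 to 0.013, high minus low. The counts of members called between fractions also include HOXB4 and HOXB5. Both passed the filter mainly through the low fraction, so their values and calls carry no weight as a test. Each change of sign was between values that were not called. Left-out libraries moved the number of members called within 0 to 1 in total GAUi, total isoswitch, low UAU, high UAU and high GAUi against control, in high isoswitch against UAU, in high control against total RNA and in the changes of isoswitch (high minus low) and GAUi (low minus total). The number moved within 0 to 2 in low control against total RNA, 1 to 2 in UAU and 1 to 3 in GAUi, high minus low. For low minus total, HOXB4 in UAU lost its edgeR call without total UAU C (adjusted p = 0.0528) or low UAU C (0.14). HOXB5 in isoswitch lost its call there without total isoswitch B (0.0969) or low isoswitch C (0.145).

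Pairing of the samples by the letters A, B and C was not seen. In none of 48 pairs of groups did all same-letter correlations exceed 0.1 (r from -0.288 to 0.164), and in 3 every sample correlated best with its own letter. These correlations cannot show whether samples of a letter came from the same culture. A replicate block changed none of the 78 results, with HOXB9 in low GAUi at 0.98 (adjusted p = 0.00806). The number of all genes called moved by over 1.5 times in 21 comparisons, given here as the main count and the lowest and highest over the fits that keep all libraries. Against control these were 113 (84 to 916), 1248 (329 to 1528) and 500 (436 to 1898) in total RNA and 86 (0 to 339), 423 (271 to 743) and 321 (105 to 538) in the low fraction, for UAU, GAUi and isoswitch. Isoswitch against UAU and GAUi gave 423 (346 to 1358) and 14 (0 to 276) in total RNA and 529 (339 to 739) and 0 (0 to 56) in the low fraction. The interaction gave 3 (3 to 95) in total RNA and 29 (0 to 251) in the low fraction. Changes of the fraction difference in UAU, GAUi and isoswitch gave 833 (226 to 1056), 25 (19 to 259) and 1 (1 to 215) for high minus low, 1 (0 to 40), 313 (0 to 566) and 0 (0 to 44) for low minus total, and 719 (688 to 1447), 61 (0 to 186) and 0 (0 to 15) for high minus total. With 1 library left out, counts against control ran from 25 (without control B) to 43, 531 (without control B) to 2134 (without GAUi A) and 194 (without isoswitch B) to 268 in total RNA, from 6 (without UAU B) to 209, 177 to 760 and 127 to 675 (all 3 highest without control B) in the low fraction, and from 2371 to 3809, 563 to 980 and 651 to 1333 in the high fraction, for UAU, GAUi and isoswitch. HOXB9 rested on 53 to 217 counts per library and the other members on at most 34, which limits them.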

Other observations

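Of the 23 HOXA, HOXC and HOXD genes with a count, 19 had their highest pooled level in the low fraction, many of them from a few counts, and 4 did not. The share over all genes was not computed, so the 19 cannot be read as particular to HOX genes. Libraries of the low fraction had 15663 to 16427 genes with a count, total RNA 15348 to 15657 and the high fraction 14783 to 15293. HOXC6 had pooled levels of 6.67 CPM in total RNA, 13.1 in the low fraction and 6.20 in the high fraction, and HOXC8 had 5.70, 10.5 and 5.43. HOXD4 had 4.40, 6.96 and 5.73 CPM, and HOXD3 had 3.60, 5.70 and 4.50. HOXC5 had 1.56, 2.55 and 1.73 CPM. HOXD1, with 1.55, 1.34 and 0.980 CPM, was highest in total RNA. These pooled levels were not tested. PRAC2, which lies beyond HOXB9 on the HOXB13 side, had 15 counts in total RNA, 2 in the low fraction and 5 in the high fraction. HOXB-AS3 had 5 counts over all libraries.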
